A study of Mus musculus with 8 samples.

Results

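The 10 genes described here are the E2F transcription factors E2f1, E2f2, E2f3, E2f4, E2f5, E2f6 and E2f8 and the pocket proteins Rb1, Rbl1 and Rbl2, followed in mouse blood after repeated restraint. Every probe set whose single gene symbol is a member was taken, which gave 23 of 45037 probe sets and 10 of 18193 named genes. The members were chosen from the same comparison of stressed with control mice that is described here, with E2f2 set against the rest as a gene rich in erythroid cells, so their differences between the groups are a description and are given without a test. Whole blood was drawn on Day 7 from 4 C57BL/6J females restrained for 6 h each day (restraint stress, RST) and from 4 control females of the same strain, the controls being kept without food and water over those hours. All were 6 to 8 weeks old when purchased and were acclimated before the restraint began, and no group carried a transgene or a deletion. Each mouse gave 1 Affymetrix GeneChip, hybridized with RNA amplified from 30 ng, and every array stands for a different animal. Expression is on a log2 scale, as deposited, so that a difference of 1 is a doubling, and groups are compared within a probe set. Where probe sets are ranked by brightness or subtracted from each other, the gap between them is not read as a ratio of transcripts.

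E2F factors bind DNA as pairs with a DP protein and set the transcription of genes for DNA replication and mitosis. E2f1, E2f2 and E2f3 are classed as activators, E2f4, E2f5, E2f6 and E2f8 as repressors. Pocket proteins bind E2F factors and hold their targets down until cyclin-dependent kinases phosphorylate them, and in the red cell lineage E2f2 and Rb1 are both known to be needed for the cell cycle exit and maturation of erythroblasts.

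E2F factors are known to act on one another's genes. For this reason windows before annotated start sites are shown for the member described most below. They are also shown for E2f8 and Rbl1, members with lower mean levels in RST mice whose windows held the E2F motif given below. The windows of E2f1, E2f6 and Rbl2, which had lower means too, did not hold it. RefSeq windows of the 250 bases before a start site (GRCm38.p6) were at hand for 7 of the 10 members, as 9 windows. No window was printed for E2f4, E2f5 or Rb1. The first 2 windows are those of E2f2, at chr4:136172024-136172273 and chr4:136180532-136180781, both on the plus strand. The second lies downstream of the first start site, thus within the gene as read from there. Which start site is used in blood was not measured. The capitals in both windows mark the KLF motif CCNCNCCC, read on both strands. Overlapping matches each counted, so that the run of G in the second window holds 4 of its 5 matches. The E2f8 window lies at chr7:48881597-48881846 and the Rbl1 window at chr2:157204535-157204784, both on the minus strand, with the E2F motif in capitals. That motif was searched as TTCCCGC and TTGGCGC and also as TTCGCGC and TTGCCGC on both strands.
E2f2, first window: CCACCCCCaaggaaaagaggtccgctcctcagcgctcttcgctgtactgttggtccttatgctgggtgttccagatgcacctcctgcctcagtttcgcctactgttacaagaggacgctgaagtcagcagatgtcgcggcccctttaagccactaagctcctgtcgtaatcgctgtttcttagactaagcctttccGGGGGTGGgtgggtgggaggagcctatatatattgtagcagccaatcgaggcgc
E2f2, second window: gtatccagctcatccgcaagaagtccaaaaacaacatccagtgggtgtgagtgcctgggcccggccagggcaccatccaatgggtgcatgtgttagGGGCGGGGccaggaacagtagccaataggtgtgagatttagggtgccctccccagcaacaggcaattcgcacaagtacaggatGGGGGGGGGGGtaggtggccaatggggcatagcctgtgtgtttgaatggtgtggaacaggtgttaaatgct
E2f8: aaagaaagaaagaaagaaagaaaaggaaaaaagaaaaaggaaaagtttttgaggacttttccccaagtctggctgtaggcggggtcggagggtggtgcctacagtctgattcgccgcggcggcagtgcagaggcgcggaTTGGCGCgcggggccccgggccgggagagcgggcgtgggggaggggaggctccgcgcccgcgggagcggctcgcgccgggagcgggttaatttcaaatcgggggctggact
Rbl1: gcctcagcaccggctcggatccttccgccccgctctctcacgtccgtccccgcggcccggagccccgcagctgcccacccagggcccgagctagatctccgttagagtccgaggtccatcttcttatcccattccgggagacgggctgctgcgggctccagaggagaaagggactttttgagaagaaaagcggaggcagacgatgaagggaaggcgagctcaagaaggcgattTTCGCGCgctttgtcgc

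The E2F motif was found in 3 of the 9 member windows, against 7.89% of the 32851 windows of all genes. The first base of the match lay 17 bases upstream of the start site in Rbl1, 111 in E2f8 and 11 in one of the E2f3 windows. Neither E2f2 window held these letters, nor did the windows of E2f1, E2f6 and Rbl2 or the other E2f3 window. The KLF motif was found in 6 of the 9 windows, against 45.9% of all windows, with 2 matches in the first E2f2 window and 5 in the second. Such matches were not particular to E2f2. The E2f1 window held 5, the E2f6 window 3 and an E2f3 window 6. The E2f8 window also held 6, which are not capitalized above. The other E2f3 window and those of Rbl1 and Rbl2 held 0. The GATA motif AGATAA was in 0 of the 9 windows, against 9.99% of all, and CCAAT was in 4 of the 9, against 33.8%. A match describes the letters of the window and is not a measured site.

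The arrays differed in scale before any gene was compared. The median log2 value of the tested probe sets was 4.31 in RST mouse 4 and 4.82 to 5.10 in the other 7 mice, and the hybridization controls averaged 11.93 and 11.90 in control mice 1 and 2 against 12.35 to 12.74 in the rest. A filter asked that a probe set exceed the array median in 2 or more of the 4 mice of 1 group, and 25084 passed. Over them the median difference, RST minus control, was −0.20 on the log2 scale. Differences are on the deposited scale unless said otherwise, and those of the members at their brightest probe set are also given after each array's median was subtracted, which moves the median over all genes from −0.24 to 0.02. With limma, 0 of the 25084 probe sets (0.0%) passed the threshold, an adjusted p under 0.05 together with more than a 1.5-fold change. At an unadjusted p under 0.05, 754 (3.01%) were higher and 2665 (10.6%) lower in RST mice, and the groups did not overlap for 560 (2.23%) that were higher and 1444 (5.76%) that were lower.

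Of the 23 member probe sets, 12 passed the filter in both groups, 1 passed through the control mice only and 10 passed in neither. Taken at the brightest probe set of each gene, 2 members had a higher mean in RST mice, E2f2 and Rb1, and 8 had a lower one. Over all 11762 genes past the filter 3812 had a higher mean. Among the 13 probe sets past the filter the groups did not overlap for 3 that were higher, the 2 of E2f2 and 1 of Rb1, and for 1 that was lower, that of E2f4. The choice of the members used this comparison, so nothing is read from these counts beside the 2.23% and 5.76% of all probe sets. In a bulk sample of blood, fewer cells of a type and less RNA per cell cannot be told apart.

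**Figure D1:**
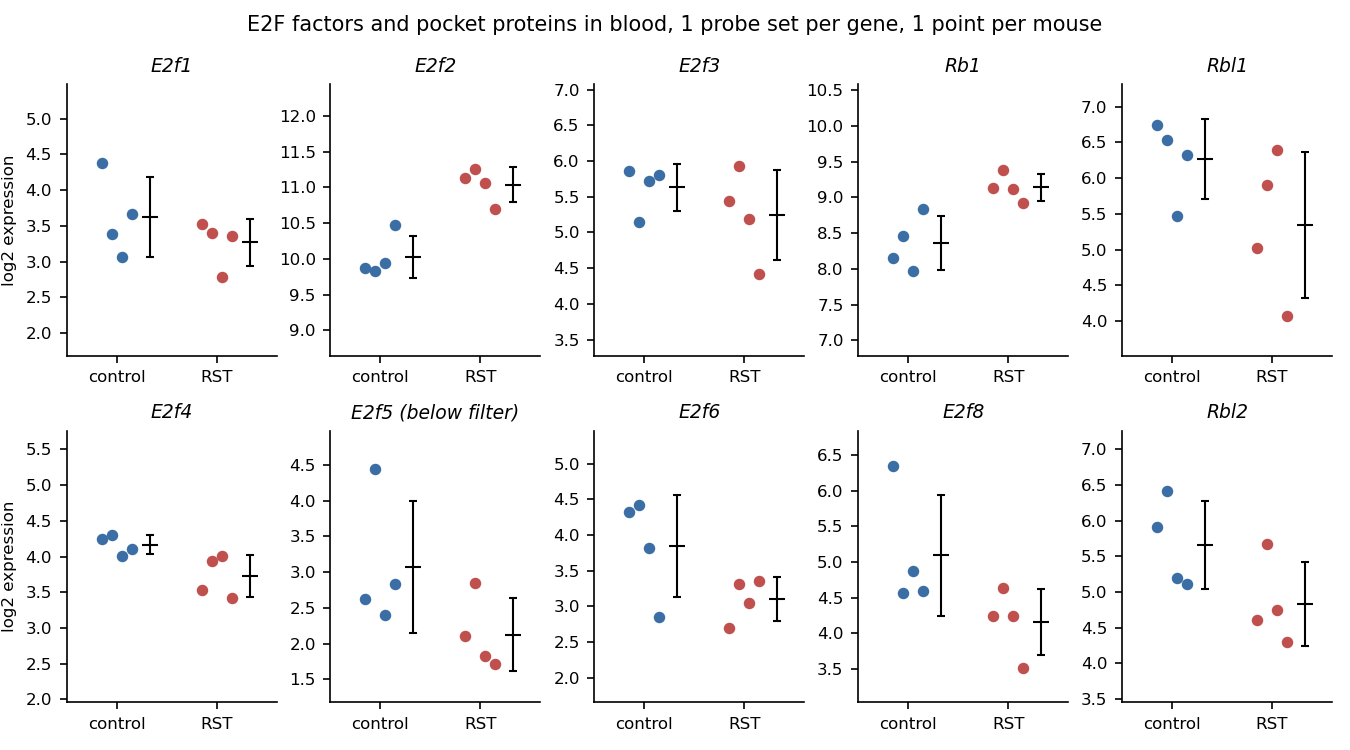
Log2 expression of the 10 members at 1 probe set each, with 1 point per mouse and the mean and SD (n = 4 per group) as bars. Every vertical axis spans the same log2 range, and its position differs between genes. All RST mice lie above all control mice for E2f2 and Rb1, with means 11.04 against 10.03 and 9.14 against 8.36.

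E2f2, an activator E2F, was the member with the largest difference, 2.01-fold higher in RST mice. At its brighter probe set (1455790_at) the log2 values were 9.88, 9.83, 9.94 and 10.47 in control mice 1 to 4 and 11.13, 11.25, 11.07 and 10.69 in RST mice 1 to 4. Every RST mouse stood above every control mouse, with control mouse 4 and RST mouse 4 nearest to each other. The means were 10.03 ± 0.30 and 11.04 ± 0.24 (SD, n = 4 each), a difference of 1.01 (standard error 0.26). After the array median was subtracted, the RST mice ran only from 6.20 to 6.38 and the control mice from 4.74 to 5.57, and the difference was 1.27.

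The other E2f2 probe set (1436434_at) gave log2 values of 9.25, 9.01, 9.41 and 9.91 in control mice against 10.76, 10.97, 10.30 and 10.33 in RST mice. Again no RST mouse fell within the control range. The difference was 1.19 (standard error 0.29), or 1.46 after the array median was subtracted. The probe sets of E2f2 also moved together among mice of the same group. With the array medians and group means removed, Pearson's r was 0.92 and Spearman's rho 0.95 over the 8 mice (exact permutation within groups, two-sided p = 0.00347 for each, 1 of 5 such pairs examined).

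The other activators, E2f1 and E2f3, had lower means in RST mice. E2f1, which is itself a target of E2F factors, had log2 values of 4.38, 3.39, 3.07 and 3.67 in control mice and 3.53, 3.40, 2.78 and 3.36 in RST mice. The groups overlapped, with control mouse 1 the highest and RST mouse 3 the lowest. The difference was −0.36 (standard error 0.32), −0.09 after the array median was subtracted and −0.11 without control mouse 1. Its other probe sets lay below the filter, with differences of −0.09 and 0.26, and the first of these turned to 0.18 after the array median was subtracted.

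E2f3 had log2 values of 5.87, 5.15, 5.72 and 5.81 in control mice and 5.44, 5.93, 5.19 and 4.41 in RST mice. RST mouse 2 was the highest of all 8 and RST mouse 4 the lowest. The difference was −0.39 (standard error 0.34), −0.13 after the array median was subtracted and −0.12 without RST mouse 4. Its other probe set, below the filter, differed by −0.17 on the deposited scale and by 0.10 after the array median was subtracted.

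Among the repressors, E2f4, the E2F of resting cells and a partner of Rbl2, gave 4.25, 4.30, 4.01 and 4.10 in control mice and 3.54, 3.94, 4.01 and 3.42 in RST mice. The lowest control value and the highest RST value met at 4.01. The difference of −0.44 (standard error 0.25) shrank to −0.17 after the array median was subtracted, and the groups then overlapped. E2f6, which represses without a pocket protein, gave 4.32, 4.41, 3.82 and 2.85 in control mice and 2.70, 3.31, 3.05 and 3.36 in RST mice. It passed the filter through the control mice alone, and control mouse 4 stood among the RST mice. Its difference was −0.75 (standard error 0.36), or −0.48 after the array median was subtracted.

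E2f8, an atypical E2F that binds DNA without a DP partner, gave 6.35, 4.56, 4.87 and 4.60 in control mice and 4.24, 4.64, 4.24 and 3.52 in RST mice. Control mouse 1 stood far above the other 7, and RST mouse 2 lay within the control range. The difference was −0.93 (standard error 0.41), −0.67 after the array median was subtracted and −0.52 without control mouse 1. E2f5, a close relative of E2f4, had no probe set past the filter. Its brightest one ran from 2.40 to 4.44 in control mice and from 1.71 to 2.85 in RST mice, a difference of −0.95 (standard error 0.44) that was −0.69 after the array median was subtracted and −0.50 without control mouse 2. The 2 further E2f5 probe sets differed by −0.18 and 0.20, the latter without overlap at values of at most 1.89, and by 0.09 and 0.46 after the array median was subtracted.

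Rb1, the retinoblastoma protein, was the other member with a higher mean in RST mice. Its log2 values were 8.15, 8.46, 7.98 and 8.84 in control mice and 9.14, 9.38, 9.11 and 8.92 in RST mice. No RST mouse fell within the control range, though control mouse 4 came close to RST mouse 4. The means were 8.36 ± 0.38 and 9.14 ± 0.19 (SD, n = 4 each), a difference of 0.78 (standard error 0.27), or 1.72-fold, and 1.05 after the array median was subtracted. A second Rb1 probe set lay below the filter and differed by 0.31 (standard error 0.20).

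Rbl1, a pocket protein of cycling cells, did not give 1 answer across its probe sets. The brightest gave 6.75, 6.53, 5.47 and 6.33 in control mice and 5.02, 5.90, 6.40 and 4.07 in RST mice, a difference of −0.92 (standard error 0.48). Control mice 1 and 2 stood above every RST mouse, and RST mouse 3 lay above control mice 3 and 4. The difference was −0.66 after the array median was subtracted and −0.50 without RST mouse 4. The 2 other probe sets past the filter differed by −0.18 and −0.01, and after the array median was subtracted by 0.08 and 0.26, so their sign turned with the scale. Within groups the first probe set was compared with each of them (r = 0.09 and −0.39 over 8 mice, exact permutation p = 0.82 and 0.29).

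Rbl2, a pocket protein of resting cells, gave 5.91, 6.41, 5.19 and 5.11 in control mice and 4.61, 5.67, 4.75 and 4.30 in RST mice. RST mouse 2 lay within the control range and the other RST mice below it. The difference was −0.83 (standard error 0.38), or −0.56 after the array median was subtracted. Its second probe set differed by −0.30 (standard error 0.35), or −0.04 after the array median was subtracted. The remaining probe sets, 1 each of E2f6, E2f8 and Rbl1 and all below the filter, differed by 0.14, 0.07 and 0.12.

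**Figure D2:**
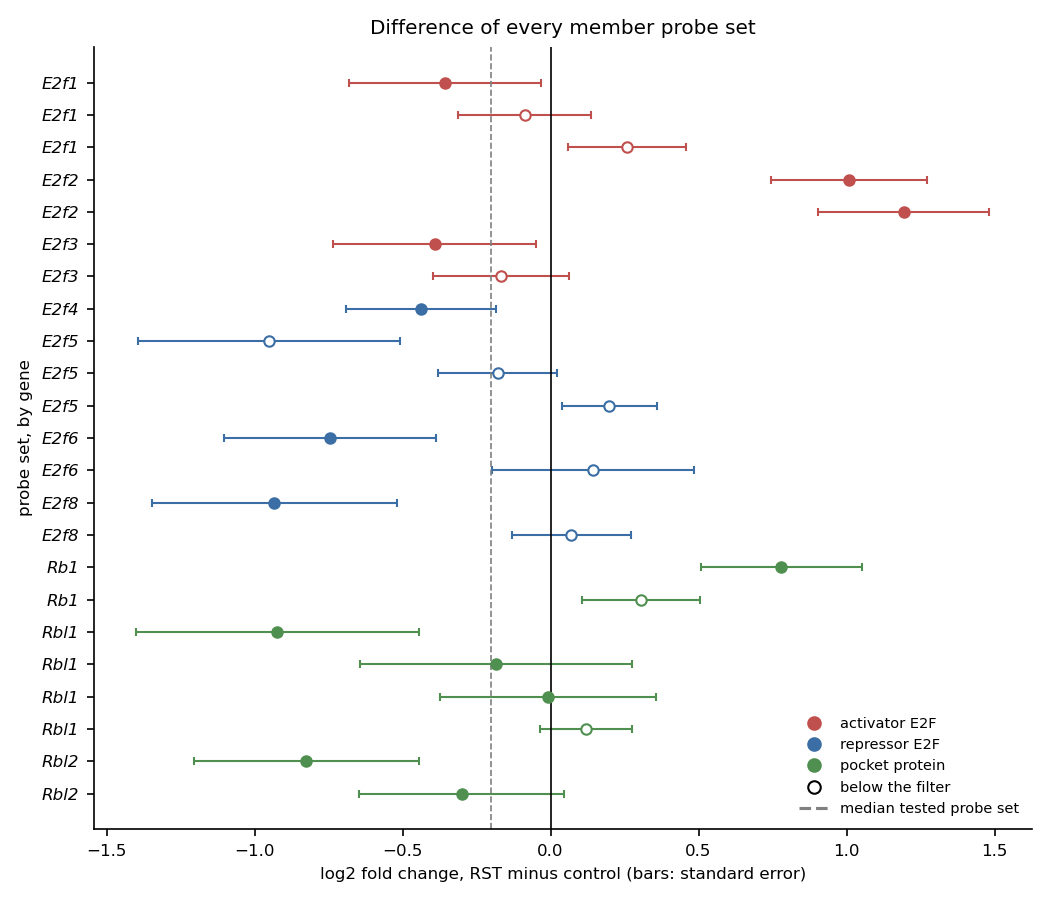
Log2 fold change, RST minus control, of all 23 member probe sets, with the standard error as bars (n = 4 per group), coloured by role. Open points lay below the filter, and the dashed line is the median of all tested probe sets at −0.20. E2f2 lies furthest right at 1.01 and 1.19 and Rb1 next at 0.78, whereas most other filled points lie at or left of the dashed line.

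E2f2 was also set against the other 9 members within each array, a measure that subtracting an array's median does not move. The E2f2 value minus the mean of the others was 4.48, 4.53, 5.22 and 5.57 in control mice and 6.65, 6.25, 6.47 and 6.57 in RST mice. The group means were 4.95 ± 0.53 and 6.49 ± 0.17 (SD, n = 4 each), a difference of 1.54 on the log2 scale, or 1.38 after quantile normalization. The mean of the other 9 members went from 5.08 ± 0.32 to 4.55 ± 0.36. With Rb1 left out of the others the difference was 1.70, and with the others past the filter alone it was 1.49. This contrast between E2f2 and the rest is how E2f2 was picked, and it was not tested.

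The size of the lower means moved with the arrays used. Without control mice 1 and 2 the difference was −0.10 for E2f1, −0.52 for E2f3, −0.33 for E2f4, −0.49 for E2f5, −0.23 for E2f6, −0.57 for E2f8, −0.55 for Rbl1 and −0.32 for Rbl2. Without RST mouse 4 it was −0.39 for E2f1, −0.34 for E2f4, −0.81 for E2f5, −0.83 for E2f6, −0.72 for E2f8 and −0.65 for Rbl2. E2f2 stood at 0.83 without control mice 1 and 2 and at 1.12 without RST mouse 4, and Rb1 at 0.73 and 0.85. At their brightest probe set all 10 members had the same direction in the 13 alternative settings that can move a difference.

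Markers of several blood cell types moved with the groups. The marker lists were chosen with earlier results of these data known, so their scores and counts are a description. The counts of genes are on the deposited scale, on which 3812 of all 11762 genes had a higher mean in RST mice. The erythroid marker score, a mean over 20 genes past the filter relative to the array median, ran from −1.09 to −0.01 in control mice and from 0.25 to 0.56 in RST mice, without overlap, and 19 of its 20 genes had a higher mean in RST mice. The B cell score ran the other way, from −0.02 to 0.76 in control mice and from −0.62 to −0.20 in RST mice, with all 12 genes lower. The platelet score ran from −0.32 to −0.14 in control mice and from 0.10 to 0.34 in RST mice. The T cell score (13 of 13 genes lower) ran from 0.03 to 0.40 and from −0.37 to 0.04, and the scores of NK cells, neutrophils and monocytes overlapped too. The part of these cell types in the differences of the members was not tested.

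Because the group means were removed first, the variation among mice of the same group was not used to choose the members. The 9 members past the filter were set against 7 marker scores, 63 relations in all, over 8 mice with array medians and group means removed. E2f2 followed the erythroid score with Pearson's r of 0.82 and Spearman's rho of 0.81 (exact permutation within groups, two-sided p = 0.092 and 0.059, adjusted 0.53 and 0.56), and r was 0.94 without control mice 2 and 4, the farthest from the median of that score. This relation did not pass the threshold after adjustment. The relative E2f2 values had an SD of 0.39 among the control mice and of 0.08 among the RST mice, so the spread behind this relation lay mostly in the control mice. E2f2 had an r of −0.76 with the B cell score (rho −0.55, exact permutation p = 0.11 and 0.29, adjusted 0.56 and 0.87), which fell to −0.23 without the same mice.

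None of the 63 relations passed after Benjamini-Hochberg adjustment, and 5 had an unadjusted p under 0.05 for Pearson's r. The first was that of E2f6 with the B cell score (r = 0.88, rho = 0.81, exact permutation p = 0.00521 and 0.0139, adjusted 0.33 and 0.29, r = 0.75 without the 2 mice farthest from the median of the score), at a probe set that passed the filter through the control mice only, with RST values of 2.70 to 3.36. The second was that of E2f8 with the neutrophil score (r = 0.72, rho = 0.69, exact permutation p = 0.0104 and 0.0677, adjusted 0.33 and 0.56, r = 0.70 without the 2 mice farthest from the median of the score). The third was that of E2f1 with the platelet score (r = 0.84, rho = 0.79, exact permutation p = 0.0208 and 0.0451, adjusted 0.44 and 0.56, r = 0.70 without the 2 mice farthest from the median of the score). The fourth was that of E2f3 with the erythroid score (r = 0.72, rho = 0.81, exact permutation p = 0.033 and 0.0139, adjusted 0.50 and 0.29, r = 0.35 without the 2 mice farthest from the median of the score). The fifth was that of Rbl2 with the monocyte score (r = 0.82, rho = 0.83, exact permutation p = 0.0399 and 0.00694, adjusted 0.50 and 0.29, r = 0.71 without the 2 mice farthest from the median of the score). Rb1 and the erythroid score gave lower values (r = 0.36, rho = 0.33, exact permutation p = 0.62 and 0.52, adjusted 0.95 and 0.88, r = 0.43 without the 2 mice farthest from the median of the score).

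**Figure D3:**
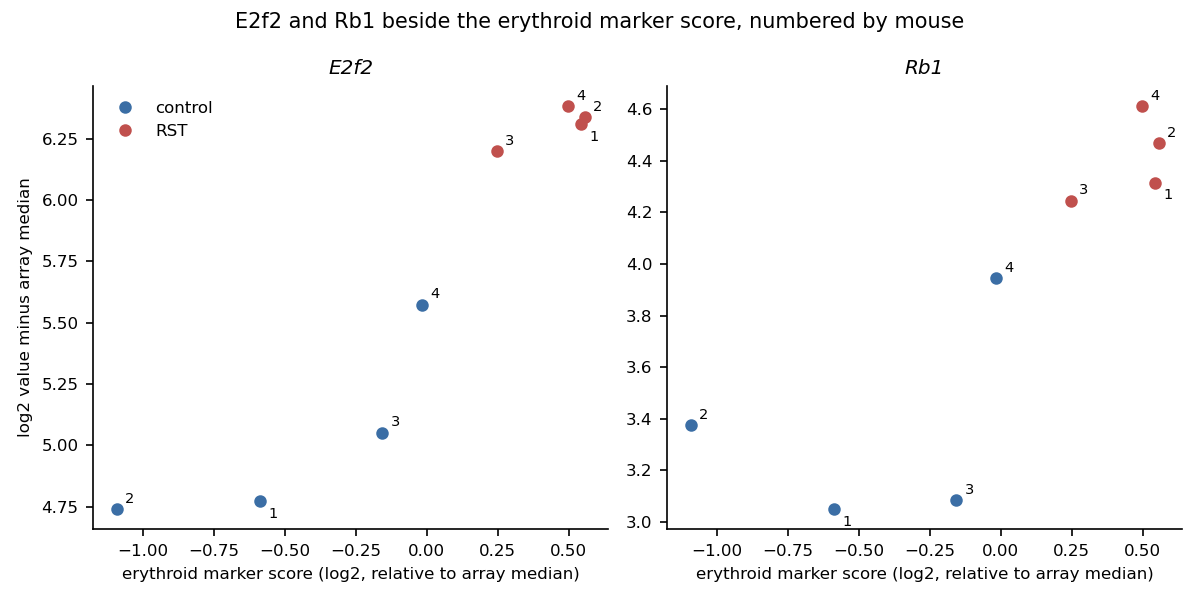
E2f2 and Rb1 (log2 value minus array median) against the erythroid marker score of the same mouse, with points numbered by mouse within control and RST. The control mice spread from −1.09 to −0.01 on the score, and the RST mice, from 0.25 to 0.56, stand above them for both genes.

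The genes whose pattern was most like that of E2f2 within groups were ranked among 11761 genes by Pearson's r over the 8 mice, as a description over libraries that share their preparation. The 10 highest were Calcrl (r = 0.99), a receptor for calcitonin-related peptides, then Rnf115 (0.98), a ubiquitin ligase, Pi4k2b (0.98), a phosphatidylinositol kinase, Ces1h (0.97), Tab3 (0.97), Usp25 (0.97), a deubiquitinase, Dnaja4 (0.97), a heat shock co-chaperone, 1500011B03Rik (0.96), Mospd1 (0.96) and Idua (0.96), a lysosomal enzyme. None of them belongs to the marker lists. Their differences between RST and control ran from 0.19 for Ces1h to 1.26 for Usp25. The 20 erythroid genes all had an r above 0 with E2f2, with a median of 0.73, against a median of −0.03 over all genes. Of the platelet genes 12 of 13 had an r above 0 (median 0.51), and of the B cell genes 0 of 12 did (median −0.64). The genes of a list were read in the same 8 mice, so these counts are not separate observations and were not tested. Rb1 had an r of 0.80 and stood at rank 373, and E2f6 had an r of −0.69.

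DP partners, which pair with E2F factors to bind DNA, went different ways. Tfdp1 gave 7.72, 7.72, 7.47 and 7.13 in control mice and 6.52, 7.27, 6.62 and 5.74 in RST mice. RST mouse 2 alone reached into the control range. The difference was −0.97 (standard error 0.33), or −0.71 after the array median was subtracted. Tfdp2 had 4 probe sets, all past the filter, with differences of 0.28, 0.33, 0.46 and 0.60, and the groups overlapped for each. At the brightest of them Tfdp2 ran from 12.04 to 12.58 in control mice and from 12.41 to 12.64 in RST mice, and its r with E2f2 within groups was 0.71, against −0.42 for Tfdp1.

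Cyclins and kinases that phosphorylate pocket proteins were lower for 7 of 8 genes on the deposited scale, on which 3812 of all 11762 genes were higher. Their median difference was −0.43 against −0.24 over all genes. None passed the adjusted threshold and the groups overlapped for all 8. The D-type cyclins Ccnd1, Ccnd2 and Ccnd3, which act in early G1, differed by −0.41, −0.57 and −0.21. Ccnd1 had 3 probe sets, all past the filter, whose differences ran from −0.41 to 0.18. Ccne1 and Ccne2, the E-type cyclins of S phase entry, differed by −0.35 and −0.52, and the kinases Cdk2, Cdk4 and Cdk6 by −0.57, −0.45 and 0.06. After the array median was subtracted the median of these 8 genes was −0.17, with Ccnd3 turning to 0.05. A second Cdk6 probe set past the filter differed by −0.52, opposite in sign to the first.

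CDK inhibitors, which keep pocket proteins active, passed the filter for 4 of 7 genes. Cdkn2c, an inhibitor of Cdk4 and Cdk6, differed by 0.51 (standard error 0.36), Cdkn1a by 0.26 and Cdkn1b by 0.07. Cdkn2d differed by −0.27 with RST mouse 4 in the comparison and turned to a higher mean after quantile normalization or without that mouse. Groups overlapped for all 4, and Cdkn1c, Cdkn2a and Cdkn2b lay below the filter with differences of −0.04, 0.01 and −0.08.

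The MuvB core binds pocket proteins and E2f4 as the DREAM complex of resting cells, or B-Myb in cycling cells. Of 8 genes 7 passed the filter, 5 with a lower and 2 with a higher mean, beside 3812 of all 11762 genes higher. Their median was −0.48 against −0.24 over all genes. It became −0.21 after the array median was subtracted and −0.24 after quantile normalization. Lin54, its DNA-binding subunit, gave 4.86, 5.30, 5.15 and 5.32 in control mice and 4.56, 3.60, 4.84 and 4.80 in RST mice. The difference was −0.71 (standard error 0.32) without overlap, a pattern that 5.76% of all probe sets showed in that direction. After the array median was subtracted it was −0.44, and the groups then overlapped, with RST mouse 4 above every control mouse. Lin9 differed by −0.64, Lin37 by −0.48, Mybl1 by −0.32 and Dyrk1a, the kinase that promotes DREAM assembly, by −0.48. A second Lin9 probe set past the filter differed by 0.28, opposite in sign to the first. Rbbp4, a histone-binding subunit shared with other complexes, differed by 0.30 and Lin52 by 0.20. Mybl2, which encodes B-Myb, lay below the filter. None of the 7 passed the adjusted threshold.

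Of the genes whose products form repressive complexes with E2f6, 9 of 10 had a probe set. Of these 6 were lower and 3 higher, beside 3812 of all 11762 genes higher. Their median was −0.53 against −0.24 over all genes, and the differences reached down to −0.86 for Mga. The median was −0.26 after the array median was subtracted, −0.31 after quantile normalization and −0.24 without control mice 1 and 2. The brightest 3 probe sets were those of Max, a dimer partner of Mga, with a difference of 0.15, Yaf2, a Polycomb protein, with 0.12, and Mga. Mga had 5 probe sets, 4 of them past the filter, and the differences of the 5 ran from −0.86 to 0.39. The groups overlapped for all 9. Within groups the 9 genes had a median r of −0.24 with E2f2, 4 of them above 0, with Max at 0.83 and L3mbtl2, a chromatin protein named after its values were seen, at −0.84.

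E2F target genes of S phase split. Of 36 listed genes 30 passed the filter, 22 with a lower and 8 with a higher mean in RST mice, beside 3812 of all 11762 genes higher. The median was −0.54 against −0.24 over all genes. Groups did not overlap for 4, all lower: Cdt1 and Msh6, for the licensing of replication and for mismatch repair, at −1.25 and −1.12, and Rpa2 and Pcna, for the fork's single strands and its sliding clamp, at −0.65 and −0.55. The 5.76% of all probe sets that were lower without overlap is the background to these 4 of 30. The highest RST value and the lowest control value were 6.37 and 6.38 for Cdt1, and they met at 8.12 for Pcna. After the array median was subtracted, the groups overlapped for Cdt1 and Pcna but not for Msh6 and Rpa2. After the array median was subtracted 13 of the 30 were higher, beside 6053 of all 11762 genes. The median of the 30 was then −0.27, and without RST mouse 4 it was −0.21.

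Ccna2, the A-type cyclin of S phase and G2, stood at the other end of the list. It gave 7.84, 7.43, 7.85 and 8.42 in control mice and 9.39, 9.27, 8.95 and 8.40 in RST mice. RST mouse 4 alone lay within the control range, just under control mouse 4. The difference was 1.12 (standard error 0.31), or 1.38 after the array median was subtracted, and the second Ccna2 probe set differed by 0.67. Within groups Ccna2 had an r of 0.86 with E2f2, while the median over the 30 genes was −0.09, with 10 above 0 and Mcm6 at −0.81. Dut, which keeps uracil out of DNA, was the second brightest of the list and differed by −0.22, turning to 0.04 after the array median was subtracted.

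G2 and M phase genes, held down by DREAM in resting cells, were higher for 10 and lower for 10 of the 20 past the filter. Over all 11762 genes 3812 were higher. With the array median subtracted 16 of the 20 were higher, beside 6053 of all genes. Without control mice 1 and 2 it was 8, beside 4136. The median of the 20 was −0.02 on the deposited scale, 0.24 with the array median subtracted and 0.09 after quantile normalization, so its sign turned with the scale. It was −0.11 without control mice 1 and 2. The range ran from −0.75 for Top2a, a topoisomerase, to 0.97 for Tpx2, a spindle protein. Groups did not overlap for 2, both higher, against 2.23% of all probe sets. Ube2c, which feeds ubiquitin to the anaphase-promoting complex, gave 10.88, 10.61, 11.04 and 11.34 in control mice and 11.89, 11.65, 11.61 and 11.61 in RST mice. Its difference was 0.72 (standard error 0.25). Nusap1, a spindle microtubule protein, ran from 9.76 to 10.62 in control mice and from 10.70 to 11.12 in RST mice, a difference of 0.69 (standard error 0.27). Mki67, the proliferation antigen Ki-67, differed by 0.32 with overlap. Ube2c, Nusap1 and Mki67, the brightest of this list, had r values of 0.84, 0.82 and 0.70 with E2f2 within groups, whereas the median over the 20 genes was 0.24, with 12 above 0 and Cdk1 at −0.70.

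**Figure D4:**
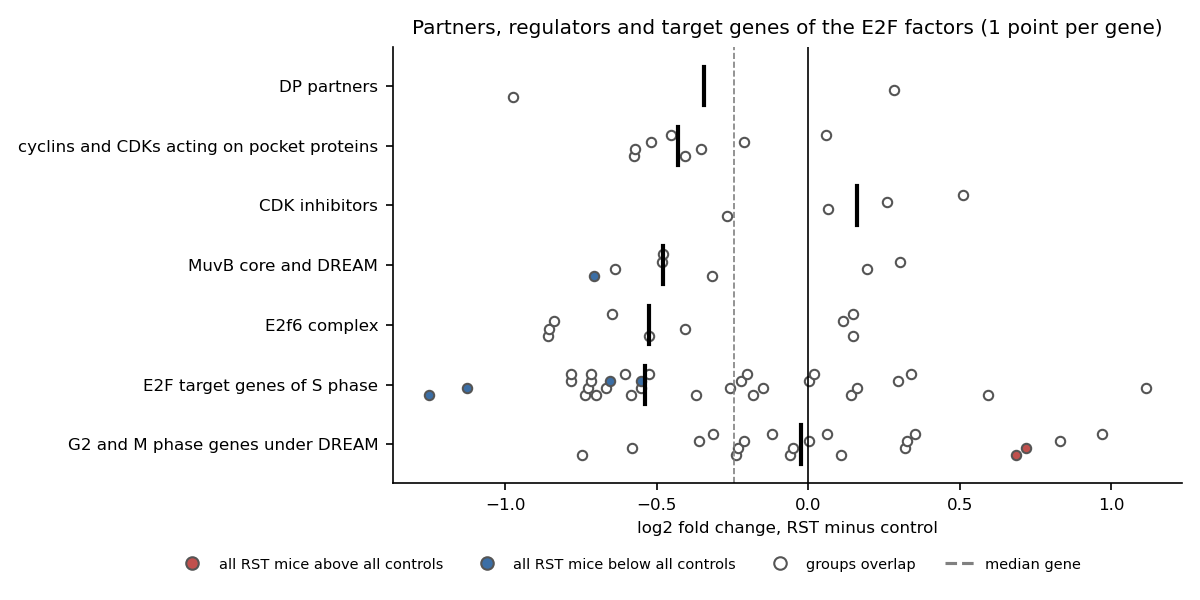
Log2 fold change, RST minus control, of the partners, regulators and target genes past the filter, 1 point per gene at its brightest probe set, with the median of each list as a black bar and the median gene at −0.24 as a dashed line. Filled points mark genes whose groups do not overlap. The S phase genes reach from −1.25 to 1.12 with a median of −0.54, and the filled points of the G2 and M phase list lie at 0.69 and 0.72.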

How the data were processed

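Whole blood of 4 RST and 4 control mice was measured, 1 array per mouse, and the number of arrays limits the precision. The deposited values are log2 levels, which the authors had background-corrected, normalized and summarized by probe set. RMA, Partek and Affymetrix Expression Console 1.2.0.20 appear in the submitters' processing notes, and GSRMA is the name in the methods. Neither scanner values nor presence calls entered.

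Groups came from the labels. From the deposited values 64 control probe sets were left out. Kept were probe sets that exceeded the array median in 2 or more of the 4 arrays of 1 group, and RST and control were compared over all of these 25084 with lmFit and eBayes of limma 3.58.1 (R 4.3.3, default prior, Benjamini-Hochberg adjustment), with calls at an adjusted p under 0.05 together with more than a 1.5-fold change. Values below the filter come from a fit of all probe sets, and the standard errors are those of limma. The fit was tested on simulated data. Gene names come from the platform annotation, with 34945 probe sets naming 1 gene, 932 several and 9160 not listed, and symbols were updated through the Entrez identifier. Each gene was read at the brightest of its probe sets that passed, or the brightest of all where none did. The members and lists were chosen with earlier results of these data known. Named are all members, all genes of the lists of DP partners, cyclins and CDKs, CDK inhibitors and MuvB, the 3 brightest and the lowest and highest of longer lists, and the 10 genes most like E2f2. Genes whose groups do not overlap, L3mbtl2, Cdk1 and Mcm6 were named after their values were seen. A marker score is the mean over the genes of a list past the filter of the log2 value minus the array median and minus the mean of the gene. Within-group correlations were tested by exact permutation of mice within groups (576 permutations, smallest p 0.00174). Promoter windows come from RefSeq (GRCm38.p6). Alternatives changed the filter, the scaling, the prior, array weights, a covariate, a replicate block, the probe set of a gene and each array in turn. Python 3.11.15 and matplotlib 3.10.9 were used for the summaries and figures.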

Additional observations from a re-analysis of the deposited data

Results flagged for a closer look

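In 112 groups of 4 mice, those of all member probe sets and of the other named genes, 6 held a mouse far from the other 3, where chance gives about 5% of groups. E2f1 at a probe set below the filter (1447840_x_at) was highest in control mouse 4 at 3.29, with the nearest at 2.87. Dut was highest in control mouse 1 at 8.67, with the nearest at 8.26. Yaf2 was lowest in control mouse 3 at 7.94, with the nearest at 8.55. RST mouse 4, the mouse with the lowest array median, was lowest for Cdkn2d at 4.26, with the nearest at 6.46, and for Pcna at 7.20, with the nearest at 8.06. Ube2c was highest in RST mouse 1 at 11.89, with the nearest at 11.65.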

How the results depend on the processing

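Before adjustment, 3337 probe sets had a p under 0.05 together with more than a 1.5-fold change. It was 5539 with array weights, 2091 with the hybridization controls as a covariate, 884 without control mice 1 and 2 and 1742 to 4952 when each mouse was left out in turn, with 1742 without control mouse 1 and 1765 without control mouse 2. limma called 0 probe sets after adjustment, 35 with a trended and robust prior and 0 under the methods' test of each probe set, which gave 2264 before adjustment. The 35 included 2 member probe sets, both of E2f2, so a call of E2f2 depended on the prior. The choice of the members used this comparison, so nothing is read from that call. The difference between E2f2 and the other 9 members stayed between 1.10 and 1.75, the lowest without control mice 1 and 2. The correlation of E2f2 with the erythroid score was 0.81 with an exact permutation p of 0.0347 when the array median was not subtracted and 0.81 with p = 0.0399 after quantile normalization, neither adjusted over the 63 relations. Leaving out each mouse in turn gave 0.82 to 0.89, with an exact p of 0.0347 without control mouse 3 and of 0.0556 to 0.194 otherwise.

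Same-numbered mice of the groups did not deviate together at every number (r of −0.24, 0.42, 0.05 and 0.20). Only for number 2 was the same-numbered mouse the closest partner. The labels give no more than the number, and these values cannot show whether same-numbered mice shared any handling. A replicate block gave 4234 probe sets at the unadjusted threshold and 0 after adjustment, and in this balanced design it leaves every difference as it was. Probe sets below the filter carry little signal over background, and 4 arrays a group limit the precision of every difference. The settings that left out Rb1 or the members below the filter from the other members, and the values of lists without doubted arrays, were chosen after seeing the data.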
